A study of Mus musculus with 12 samples.

Results

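The expression of 40 cell cycle and DNA replication genes was examined in osteoblasts sorted from mice treated with parathyroid hormone (PTH) or vehicle, and in MC3T3-E1 cells with or without overexpression of *Slpi*, which encodes secretory leukocyte protease inhibitor. The genes were chosen by name as a list of proliferation genes, 16 of them acting around S phase and 24 in mitosis. Earlier results of these data were known when the list was chosen. All 40 were found among the 23284 genes listed for sorted osteoblasts and the 24346 listed for MC3T3-E1 cells, and all 40 passed the filter on low values in both experiments. RNA-Seq had been performed on 12 libraries, 3 per group. The osteoblasts were the 7AAD- Lin- CD45- ECFP+ cells of female Col2.3-ECFP mice, in which a type I collagen promoter drives a cyan fluorescent protein. The mice were 12 weeks old when injections of vehicle (PBS) or PTH(1-34), an active hormone fragment, began. A daily dose of 40 µg/kg was given on 5 days of each week over 3 weeks, and cells were taken 24 h after the last dose. MC3T3-E1 is a clonal osteoblastic line from mouse calvaria. It was transduced with the empty retroviral vector pMX-IRES-Puro (mock) or with pMX-Slpi-IRES-Puro (Slpi), selected with puromycin and harvested when subconfluent, so that both groups carried a vector and resistance to the drug. The study describes its biological replicates in general as coming from separate animals. Whether each sorted library was 1 mouse or a pool, and whether the MC3T3-E1 libraries were separate cultures, is not given in the sources used here, and the *p* values measure only the spread between these libraries.

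A dividing cell copies its genome once in S phase and parts the copies in mitosis. Before S phase, ORC, CDC6 and CDT1 load the MCM2-7 helicase onto DNA, and E2F transcription factors, released from the retinoblastoma protein by cyclin-dependent kinases, switch on the genes for this machinery and for nucleotide synthesis. Genes for mitosis are switched on later, in G2, through promoter elements called the CCAAT box and the cell cycle genes homology region (CHR). Mature osteoblasts on bone surfaces are regarded as cells that have largely left the cycle, whereas a subconfluent cell line divides.

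The promoters of the listed genes differed in these elements. Promoter windows of 300 bases, 250 before and 50 after the transcription start, were taken from RefSeq (build GRCm38.p6) and were given for 20 of the 24 mitotic and 14 of the 16 S-phase genes. No window was given for *Ccna2*, *Aurkb*, *Kif20a*, *Tpx2*, *Ccne2* and *Mcm4*. The letters searched on both strands were TTTCCCGC, TTTGGCGC, TTTCGCGC and TTTGCCGC for the E2F site, TTTGAA and TTCGAA for the CHR element, and CCAAT for the CCAAT box. A CHR element was matched in 16 mitotic promoters (80%), 3 S-phase promoters (21.4%) and 21.7% of the promoters of all 27025 genes. The CCAAT box was matched in 18 mitotic (90%) and 9 S-phase promoters (64.3%) against 41.1% of all, and 16 mitotic promoters (80%) held both elements against 9.65% of all. An E2F site was matched in 6 S-phase promoters (42.9%), those of *Cdc6*, *Cdt1*, *Mcm3*, *Mcm5*, *Mcm6* and *Mcm7*, in 1 mitotic promoter (5%), that of *Cdk1*, and in 2.61% of all. These are matches of letters, and binding was not measured.

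**Figure D1:**
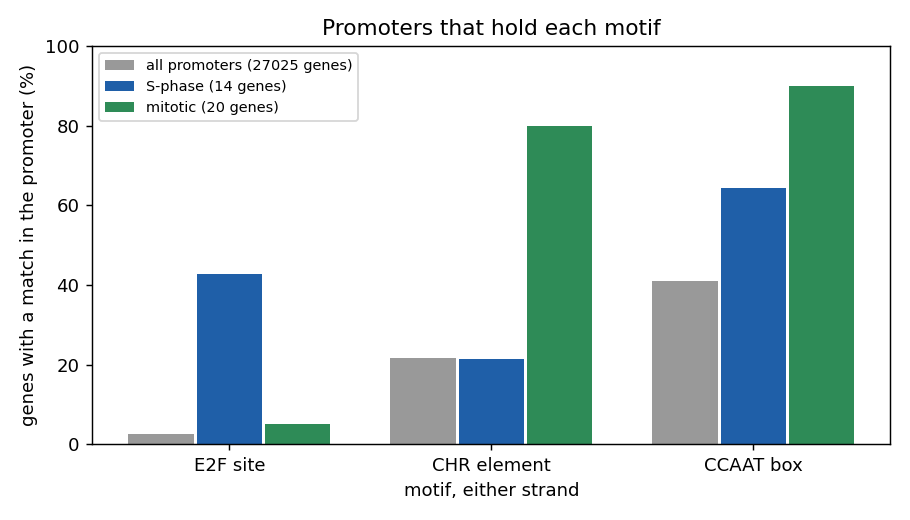
Percentage of genes with at least 1 match of each motif on either strand of the 300-base promoter window. Grey bars are all 27025 genes with a window, blue bars the 14 S-phase genes and green bars the 20 mitotic genes. CHR elements stand at 80% in mitotic and 21.4% in S-phase promoters, and E2F sites at 5% and 42.9%.

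The 160 bases upstream of the start are shown for 2 mitotic genes and 2 S-phase genes. They run 5′ to 3′ on the strand of the gene, with matches in capitals. The genes were chosen for the matches in this stretch, among the 3 called genes of each list with a window and the smallest adjusted *p*. *Aurkb* came next after *Aurka* by adjusted *p* but had no window. *Cdc20*, an activator of the anaphase-promoting complex, lies on the minus strand (chr4:118437344-118437503), with CCAAT boxes 53 and 8 bases and a CHR element 18 bases upstream of the start. *Aurka*, a spindle pole kinase, lies on the minus strand (chr2:172370571-172370730), with CCAAT boxes 51 and 19 bases upstream and its CHR match beyond the start, outside the stretch shown. *Mcm5* lies on the plus strand (chr8:75109349-75109508), with a pair of overlapping E2F matches 153 and 149 bases upstream and CCAAT boxes 77 and 22 bases upstream. *Mcm6* lies on the minus strand (chr1:128359706-128359865), with E2F matches 110, 106 and 47 bases upstream and CCAAT boxes, read on the other strand, 57 and 14 bases upstream. The genes passed over were *Plk1*, with 1 CCAAT box in this stretch, and *Cdt1*, which ranked before *Mcm6* and whose only match, an E2F site, lies beyond the start.
Cdc20: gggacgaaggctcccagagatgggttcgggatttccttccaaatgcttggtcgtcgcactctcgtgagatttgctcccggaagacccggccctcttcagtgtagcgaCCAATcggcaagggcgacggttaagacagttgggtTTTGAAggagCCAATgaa
Aurka: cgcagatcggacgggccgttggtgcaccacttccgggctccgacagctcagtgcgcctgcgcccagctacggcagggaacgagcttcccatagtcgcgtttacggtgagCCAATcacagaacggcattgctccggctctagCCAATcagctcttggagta
Mcm5: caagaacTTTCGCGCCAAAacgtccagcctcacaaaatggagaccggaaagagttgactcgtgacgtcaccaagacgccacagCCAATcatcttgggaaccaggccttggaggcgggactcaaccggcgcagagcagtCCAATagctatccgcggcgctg
Mcm6: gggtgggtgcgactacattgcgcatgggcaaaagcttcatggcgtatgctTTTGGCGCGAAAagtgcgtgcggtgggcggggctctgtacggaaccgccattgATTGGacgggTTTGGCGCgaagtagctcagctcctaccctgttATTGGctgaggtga

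*Slpi* itself was read beside the labels. The study reported its rise with PTH in osteoblasts by qPCR as well, after singling it out by its rise in the RNA-Seq. Only the MC3T3-E1 values, where the vector carried *Slpi*, are therefore an independent check. The level of *Slpi* in FPKM, a fragment count scaled to transcript length and library size, read 1.64, 2.38 and 2.62 with vehicle, against 37.5, 19.8 and 27.2 with PTH. In MC3T3-E1 cells it was 377, 396 and 386 in mock and 2105, 1973 and 1848 in Slpi. The groups did not overlap in either experiment, and *Slpi* was higher by 3.15 ± 0.24 (SE, n = 3 per group, limma adjusted *p* = 0.0131) and 2.35 ± 0.05 (adjusted *p* = 3.92e-08) as differences of log2(FPKM + 1), the scale of every fold change below unless a ratio of mean FPKM is named. From the FPKM step of a single read, the libraries held an estimated 5020000 to 8920000 reads in sorted osteoblasts and 24750000 to 28530000 in MC3T3-E1 cells. With the longest protein-coding transcript of each gene taken as its length, the least covered listed genes in osteoblasts were *Ttk* and *Aurka*. They had about 24 and 25 reads in their lowest libraries. The osteoblast markers *Sp7*, *Runx2*, *Bglap*, *Ibsp*, *Alpl* and *Spp1* were present in all sorted libraries, whereas *Col1a1* (26216 and 24170 FPKM in vehicle replicates 1 and 2) and *Col1a2* (26655 and 24544 FPKM) were listed at 0 in the other 4 libraries. A listed 0 can be a failed estimate and is not read here as absence of these RNAs.

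In PTH-treated osteoblasts, the S-phase genes were lower. All 16 had lower mean values with PTH, 12 passed the test (75%) and none was called higher, with a median log2 fold change of -1.24 against 0.01 over the 13004 genes tested. A gene was called at a Benjamini-Hochberg adjusted *p* under 0.05 in limma, at which 8.85% of all genes tested were lower and 6.38% higher. Of all calls in this comparison 41.9% were in the higher direction, and 30.4% with values scaled to TPM. The vehicle and PTH libraries did not overlap, with PTH lower, in 14 of the 16 S-phase genes, against 20.9% of all genes. Because sorted cells were measured in bulk, fewer cycling cells and less of these RNAs per cell cannot be told apart.

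On the log2(FPKM + 1) scale, the 5 largest falls were those of helicase genes, whereas by ratio of mean FPKM, and with a pseudocount of 0.1, *Cdc6* came first. *Mcm7* (chr5:138164583-138172422, minus strand in GENCODE M21, GRCm38) had an FPKM of 58.4, 50.3 and 38.0 with vehicle and 18.7, 15.2 and 10.8 with PTH. Its lowest vehicle library stood above its highest PTH library, and the fold change was -1.66 ± 0.23 (SE, n = 3 per group, limma adjusted *p* = 0.0139). Exons of *Mcm7* overlap those of *Ap4m1* and *Cops6* on the opposite strand, and the SMART-Seq kit does not keep strand. *Mcm3* read 30.3, 32.4 and 19.1 FPKM with vehicle and 8.41, 8.39 and 3.50 with PTH, a fold change of -1.91 ± 0.33 (adjusted *p* = 0.0190). *Mcm2* read 31.7, 36.9 and 17.9 FPKM against 9.77, 7.77 and 3.77, a fold change of -1.90 ± 0.36 (adjusted *p* = 0.0230). For *Mcm4* the values were 30.6, 30.6 and 20.6 FPKM against 8.52, 9.30 and 3.46 (-1.87 ± 0.33, adjusted *p* = 0.0199). In these 3 genes mean FPKM was 3.84 to 4.06 times higher with vehicle, vehicle replicate 3 was the lowest vehicle library and PTH replicate 3 the lowest of all 6. *Mcm6* read 45.1, 46.8 and 28.5 FPKM against 17.7, 14.5 and 7.54 (-1.57 ± 0.32, adjusted *p* = 0.0261). *Mcm5* had the smallest change of the 6 subunits, -1.25 ± 0.32 (adjusted *p* = 0.0429), from a mean of 17.4 ± 5.33 FPKM (SD, n = 3) to 6.83 ± 2.52. All 6 subunits of the helicase were thus called lower.

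The factors that load the helicase were also lower. *Cdc6* (chr11:98907801-98923940, plus strand), the ATPase that works with ORC, read 6.15, 6.16 and 4.00 FPKM with vehicle and 1.65, 1.33 and 0.774 with PTH. This was a 4.35-fold lower mean FPKM and a fold change of -1.52 ± 0.22 (adjusted *p* = 0.0143), on few reads, about 30 in the lowest library. *Cdt1* (chr8:122568015-122573554, plus strand), its partner, read 23.3, 24.3 and 24.4 FPKM against 15.1, 13.5 and 15.4. Its change was smaller, -0.68 ± 0.10 (adjusted *p* = 0.0145), with little spread in either group. *Ccne1*, the cyclin that activates CDK2 at the entry to S phase, read 10.6, 7.84 and 5.41 FPKM with vehicle and 2.88, 2.71 and 2.55 with PTH (-1.23 ± 0.22, adjusted *p* = 0.0198). Its paralogue *Ccne2* did not pass, with 2.65 ± 0.68 FPKM against 2.25 ± 0.41 and overlapping groups (adjusted *p* = 0.603).

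The other called S-phase genes were *Pcna*, *Rrm2* and *E2f1*. *Pcna*, the sliding clamp of DNA polymerases and the highest of the 40 genes in osteoblasts by FPKM, though with 2 named pseudogenes, was 134 ± 22.1 (SD, n = 3) with vehicle and 77.9 ± 12.6 with PTH (-0.78 ± 0.16, adjusted *p* = 0.0287). *Rrm2*, the subunit of ribonucleotide reductase made in S phase, was 44.1 ± 14.9 FPKM against 15.9 ± 4.57 (-1.39 ± 0.31, adjusted *p* = 0.0316). *E2f1*, an activating E2F factor, was 7.79 ± 2.18 FPKM against 3.56 ± 0.63 (-0.93 ± 0.22, adjusted *p* = 0.0373). *Rrm1*, *Tyms* and *E2f8* had fold changes of -0.75, -0.44 and -0.93 that did not pass (adjusted *p* = 0.128, 0.117 and 0.0654), although the groups overlapped only in *Rrm1*. At 2-fold and an unadjusted *p* under 0.05, the thresholds that the study states, 9 S-phase genes and 3 mitotic genes were lower, against 4.35% of all genes.

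**Figure D2:**
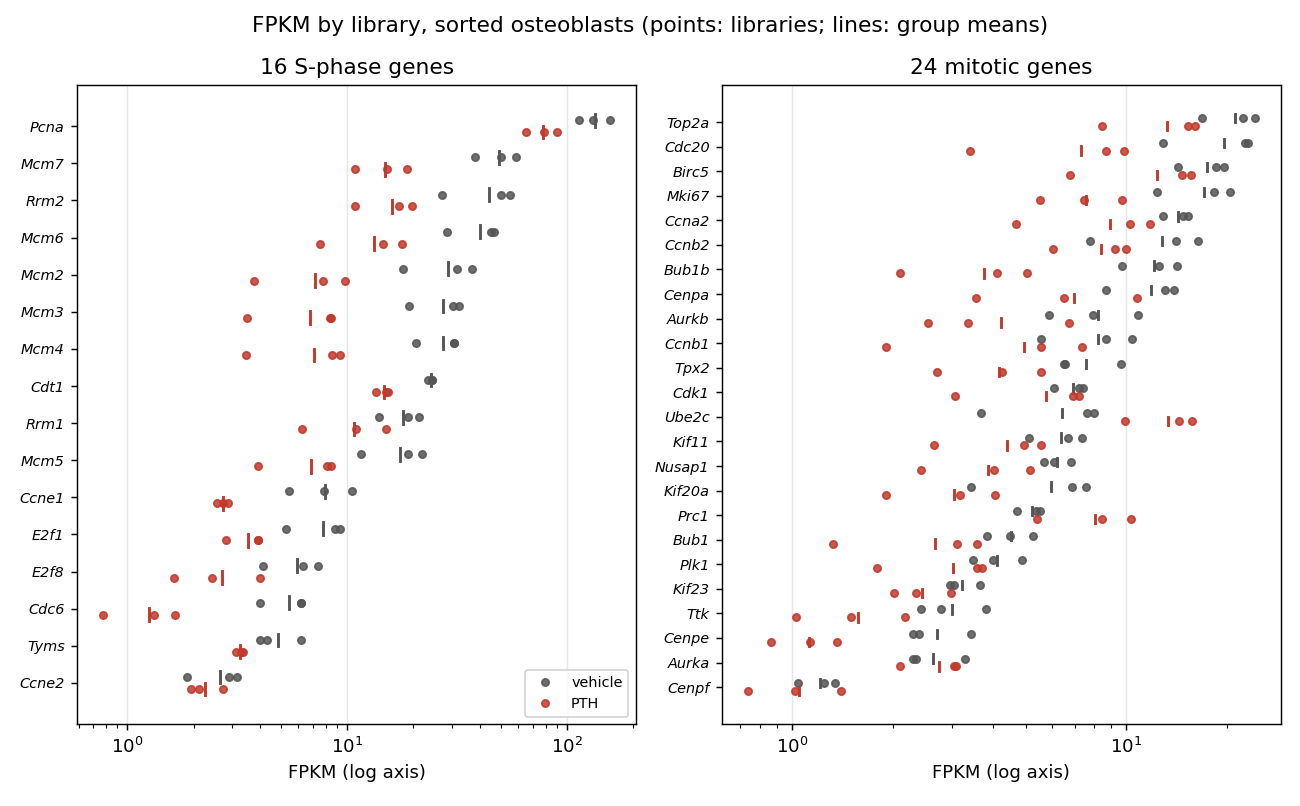
FPKM of the 16 S-phase genes (left) and 24 mitotic genes (right) in sorted osteoblasts on a log axis, with genes ordered by their vehicle mean. Points are the 3 vehicle (grey) and 3 PTH (red) libraries and short vertical lines the group means. PTH points lie left of all vehicle points in 14 S-phase genes and 10 mitotic genes.

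The mitotic genes gave a more mixed picture. Of the 24, 3 were called lower (12.5%), *Bub1b*, *Mki67* and *Cenpe*, and none higher, beside 8.85% lower among all genes. The median fold change was -0.64, the means of 21 genes were lower with PTH, and in 10 of 24 the groups did not overlap with PTH lower, beside 20.9% of all genes. *Bub1b* (chr2:118598211-118641591, plus strand), a kinase-like protein of the spindle checkpoint, read 14.1, 12.5 and 9.72 FPKM with vehicle and 5.05, 4.11 and 2.09 with PTH. Its fold change of -1.51 ± 0.27 (SE, n = 3 per group, adjusted *p* = 0.0195) was the largest fall of the 24. *Mki67*, which encodes the proliferation antigen Ki-67, read 18.3, 20.4 and 12.4 FPKM against 9.72, 7.48 and 5.52 (-1.07 ± 0.24, adjusted *p* = 0.0321). *Cenpe*, a kinetochore motor, read 3.43, 2.30 and 2.40 FPKM against 1.36, 1.13 and 0.865 (-0.80 ± 0.19, adjusted *p* = 0.0367). Its call was lost in all 6 fits that left out 1 library (limma adjusted *p* from 0.0624 to 0.131), without the filter (0.0542) and with quantile normalization (0.0551). In these 3 genes every PTH library was below every vehicle library.

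The other mitotic genes did not pass the test. *Cdc20* read 23.0, 22.7 and 12.8 FPKM with vehicle and 9.85, 8.71 and 3.40 with PTH, without overlap, at an adjusted *p* of 0.0531 (-1.36 ± 0.38), and passed with quantile normalization (adjusted *p* = 0.0437). *Tpx2*, which activates Aurora A on the spindle, read 9.65, 6.57 and 6.49 FPKM against 5.55, 4.24 and 2.71 (-0.75 ± 0.24, adjusted *p* = 0.0804). *Top2a*, the topoisomerase that untangles sister chromatids, was 21.1 ± 3.88 FPKM (SD, n = 3) against 13.2 ± 4.16 (adjusted *p* = 0.114). *Cdk1*, the kinase that drives mitosis, was 6.90 ± 0.72 FPKM against 5.74 ± 2.31, with an interval of the fold change from -0.94 to 0.35 (95%, adjusted *p* = 0.479). For *Aurka* the interval ran from -0.39 to 0.48 around 0.04, and for *Cenpf*, a kinetochore protein, from -0.58 to 0.34. For the other 13 genes, fold changes lay between -0.87 for *Aurkb* and -0.30 for *Kif23*, with adjusted *p* from 0.0923 for *Ttk* to 0.299 for *Plk1*. The interval of *Cdk1* held the median change of the 24 genes, and those of *Aurka* and *Cenpf* did not.

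*Ube2c*, the ubiquitin-conjugating enzyme of the anaphase-promoting complex, and *Prc1*, which bundles the microtubules of the central spindle, had higher means with PTH. *Ube2c* read 3.68, 7.97 and 7.60 FPKM with vehicle and 15.7, 14.3 and 9.87 with PTH, without overlap, and did not pass (0.98 ± 0.29, adjusted *p* = 0.0604). *Prc1* read 5.36, 5.53 and 4.71 FPKM against 8.43, 10.3 and 5.41 (0.51 ± 0.21, adjusted *p* = 0.146). Exons of *Ube2c* overlap *Tnnc2*, and those of *Prc1* overlap *Rccd1*, on the opposite strand, so their reads cannot be told apart without strand. The same limit holds for mitotic genes with lower means, namely *Ccna2*, *Plk1*, *Cdc20*, *Kif20a* and *Nusap1*. Before adjustment, the limma *p* values of *Ube2c* and *Prc1* were 0.0106 and 0.0480, and these were the 2 listed genes with a positive fold change at an unadjusted *p* under 0.05. With *Aurka*, they were the only genes of the 40 with a positive fold change.

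The fall did not rest evenly on the libraries. PTH replicate 3 was the lowest of all 6 libraries for 22 of the 24 mitotic and 14 of the 16 S-phase genes, and vehicle replicate 3 the lowest vehicle library for 19 and 15. The median FPKM of the S-phase genes was 21.1, 23.1 and 15.9 with vehicle and 8.48, 8.25 and 3.64 with PTH. That of the mitotic genes was 7.28, 7.48 and 5.78 against 6.13, 4.58 and 2.61. Without vehicle replicate 1 or without vehicle replicate 2, 0 of the 40 genes were called by limma after adjustment, where 1 and 0 genes of the whole table were called and 3181 and 3053 had an unadjusted *p* under 0.05. By the 2-fold rule, 9 S-phase genes were lower without each of these libraries in turn, beside 512 of 12899 and 482 of 12835 genes tested. Without any other library, 8 to 12 S-phase genes and 1 or 2 mitotic genes were called lower, the 1 without PTH replicate 2 and the 8 without PTH replicate 1. In these fits 405 to 895 of 12768 to 12945 genes tested were called lower. The 1 or 2 of 24 are therefore not read as a result about the mitotic genes. Without PTH replicate 3, 2 mitotic genes were called higher, beside 585 of 12900 genes tested.

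Markers of other cells moved in the same libraries, although the sort had gated out CD45+ and lineage-positive cells. The counts below stand beside 8.85% called lower and 6.38% called higher among all 13004 genes tested. A single call in a short list is not read as a result about that list. The summed FPKM of the 5 T cell markers listed was 136, 126 and 87.5 with vehicle and 12.3, 17.5 and 0.716 with PTH, and 4 of the 5 tested were called lower (*Cd3d*, *Cd3e*, *Cd3g* and *Lck*). *Cpa3*, a mast cell protease also made by early blood progenitors, read 74.0, 70.7 and 46.7 FPKM against 6.18, 7.52 and 0.269, while *Ms4a2* and *Fcer1a*, the defining receptor genes of mast cells and basophils, were at 0 throughout. Fold changes of the 3 tested genes of that list, *Cpa3*, *Mcpt8* and *Prss34*, ran from -3.90 to 0.71 with a median of -0.19. Of these 1 was positive, and 1 was called, lower. The sum over 8 neutrophil markers was 364, 455 and 427 FPKM with vehicle and 2227, 1884 and 686 with PTH, with 7 of 8 called higher. The megakaryocyte markers summed to 3.51, 7.34 and 4.84 FPKM against 186, 149 and 6.47, with 1 of 6 called, higher. Of the 6 erythroid and 5 B cell precursor markers tested, 0 were called by limma, and 1 of each had an unadjusted *p* under 0.05. Of the other marker lists, 1 of 5 neutrophil granule precursor genes (*Ms4a3*) and 1 of 5 macrophage and osteoclast genes (*Ctsk*) were called, both higher, and 0 of 2 endothelial genes, with 0.130 as the smallest adjusted limma *p* and 1 unadjusted *p* under 0.05. The granule precursor genes summed to 19.6, 26.6 and 17.7 FPKM with vehicle and 214, 149 and 27.2 with PTH. All 5 had positive fold changes, with a median of 1.97, and 4 had an unadjusted limma *p* under 0.05. All 5 macrophage and osteoclast genes had positive fold changes too, 2 with an unadjusted limma *p* under 0.05. All 3 PTH libraries had lower S-phase and T cell sums and a higher neutrophil sum than any vehicle library, and PTH replicate 3 had the lowest of the 3 in each list. Of 10 osteoblast markers, 2 were called higher (*Alpl* and *Spp1*) and 0 lower. Of the 10, 5 were higher without overlap, beside 2537 of the 13004 genes tested. Their median fold change of 0.37 includes *Col1a1* and *Col1a2*, whose listed 0 values can be failed estimates. The 8 markers other than the collagen genes summed to 11341, 11256 and 13616 FPKM with vehicle and 14733, 12993 and 21265 with PTH, and the groups overlapped. The part of these cells in the fall of the S-phase genes was not tested.

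**Figure D3:**
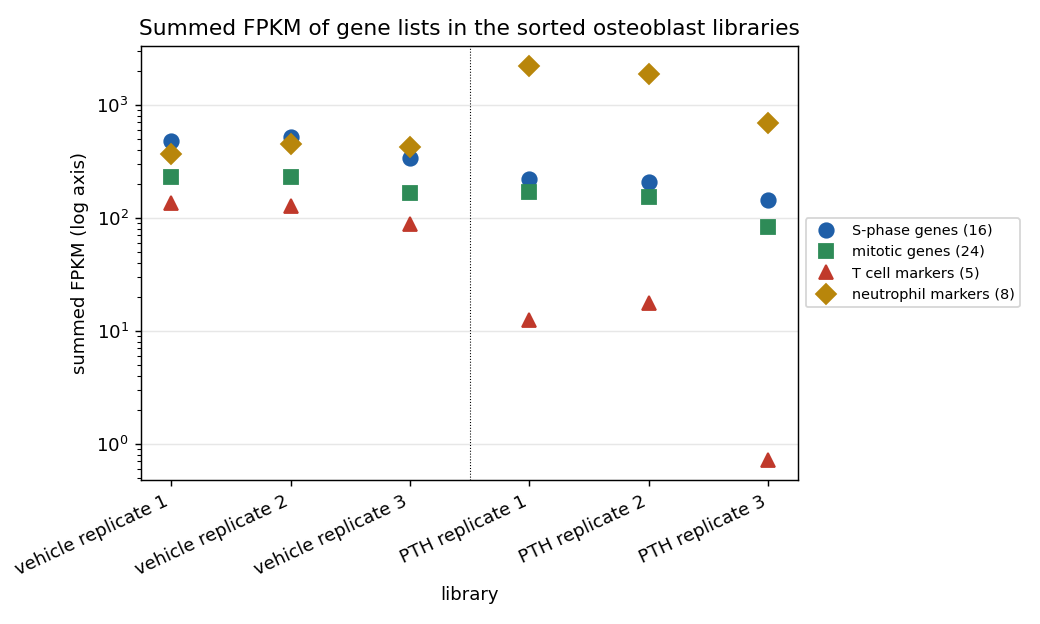
Summed FPKM, on a log axis, of the 16 S-phase genes, 24 mitotic genes, 5 T cell markers and 8 neutrophil markers in each of the 6 sorted osteoblast libraries, 1 point per list and library. The T cell sum runs from 136 in vehicle replicate 1 to 0.716 in PTH replicate 3, the library in which the S-phase sum is also lowest (143, against 478 in vehicle replicate 1).

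Genes of the same pathways outside the 40 were examined by list. These lists too were chosen with earlier results known and were read in the same libraries, so they are not independent support. Of 51 other replication genes, 36 were called lower and 0 higher, with a median fold change of -1.01, beside 8.85% lower among all genes, and all 51 fold changes were negative. *Mcm10*, which helps to activate the helicase, fell from a mean of 15.9 ± 5.22 FPKM (SD, n = 3) to 2.15 ± 0.91 (-2.42 ± 0.31, adjusted *p* = 0.0138). *Uhrf1*, which guides maintenance methylation of DNA, fell by 2.12 and *Wdhd1*, a replisome scaffold, by 1.24 on the log2 scale (adjusted *p* = 0.0139 and 0.0139). Of 61 other mitotic genes tested, 13 were called lower and 0 higher, with a median of -0.45 (21.3% lower, beside the same 8.85%). The smallest adjusted *p* belonged to *Trip13* and *Mad2l1* of the spindle checkpoint (-1.37 and -1.48, adjusted *p* = 0.0143 and 0.0233) and *Ncaph*, a condensin subunit (-0.92, adjusted *p* = 0.0253). Without PTH replicate 1, the calls, all lower, were 17 among the other replication genes and 5 among the other mitotic genes. Of all 12914 genes tested in that fit, 405 were called lower. The calls in these lists were 0 and 0 without vehicle replicate 1 or 2. Without PTH replicate 3, 8 other mitotic genes were called lower, beside 790 of 12900 genes tested.

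The G1 genes and the inhibitors did not move as 1 group. *Ccnd1*, the cyclin of early G1, rose from 6.80, 6.42 and 7.33 FPKM with vehicle to 15.3, 17.9 and 18.8 with PTH (1.22 ± 0.12, adjusted *p* = 0.0131), and was the only gene called higher among the 12 tested cyclins, kinases and E2F factors of G1. *Cdk2*, the kinase bound by cyclin E (-0.64, adjusted *p* = 0.0256), *Cdc25a*, the phosphatase that activates it (-0.51, adjusted *p* = 0.0290), and *Tfdp1*, the partner of E2F factors (-0.56, adjusted *p* = 0.0387), were lower. Among 20 inhibitors, 1 was called higher and 1 lower (5% each), shares no larger than the 6.38% and 8.85% of all genes. *Cdkn2a*, whose products are p16 and p19, fell from 12.2, 16.1 and 9.59 FPKM to 2.33, 3.12 and 2.38 (-1.90 ± 0.20, adjusted *p* = 0.0133). *Cdkn2c*, which encodes p18, rose from 2.44, 3.10 and 2.60 FPKM to 5.92, 7.92 and 4.47 (0.91 ± 0.20, adjusted *p* = 0.0308). The call of *Cdkn2c* held in 1 of 6 fits that left out 1 library, the fit without PTH replicate 3 (limma adjusted *p* from 0.0158 to 0.116), and was lost without the filter (0.0531). Calls in G1 genes and inhibitors were 0 and 0 without vehicle replicate 1 or 2, and 1 and 1 without PTH replicate 1. They were 2 in G1 genes without PTH replicate 3 and 1 inhibitor without PTH replicate 2.

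The same 40 genes were compared between *Slpi*-overexpressing and mock MC3T3-E1 cells. How many times cells were transduced for each group is not given in the sources used here. An effect of *Slpi* and other differences between the selected populations therefore cannot be told apart. S-phase genes were called higher in 15 of 16 and mitotic genes in 19 of 24, and none was called lower. This experiment had little spread between libraries, and 31.9% of its 11466 tested genes were called higher and 28.9% lower. Of all calls 52.5% were in the higher direction, and 35.0% with values scaled to TPM. The median fold change was 0.60 for the S-phase and 0.45 for the mitotic genes, against 0.00 over all genes. All 16 S-phase genes and 19 mitotic genes were higher without overlap, beside 34.9% of all genes. The changes were small, and 0 of the 40 reached 2-fold at an unadjusted limma *p* under 0.05, which 0.75% of all genes did in the higher direction, although 36 of the 40 had an unadjusted *p* under 0.05.

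*Mcm5* changed most among the S-phase genes, from 34.6, 35.0 and 35.7 FPKM in mock to 66.3, 69.1 and 63.3 in Slpi (0.90 ± 0.04, SE, n = 3 per group, limma adjusted *p* = 1.4e-06), a mean 1.89 times higher. *Cdt1* rose from 14.9, 15.6 and 14.5 FPKM to 25.7, 26.8 and 24.2 (0.73 ± 0.05, adjusted *p* = 8.8e-06). For *Mcm6* the values were 61.2, 60.7 and 61.1 FPKM against 86.1, 90.5 and 84.5 (0.51 ± 0.03, adjusted *p* = 1.11e-05). In each of these genes the gap between the groups was larger than the range within either. *Mcm2* read 32.6, 34.0 and 32.8 FPKM against 51.9, 56.8 and 50.3, and *Mcm3* 38.8, 41.6 and 40.1 against 63.3, 68.8 and 60.9 (0.66 ± 0.05 and 0.67 ± 0.05). *Mcm7* read 49.5, 52.1 and 52.9 FPKM against 79.1, 81.7 and 74.2, and *Mcm4* 24.5, 26.6 and 27.6 against 40.5, 43.1 and 41.2 (0.59 ± 0.04 and 0.65 ± 0.05). The rise thus covered all 6 helicase subunits, which spanned 0.51 to 0.90. *Cdc6* read 6.79, 7.03 and 6.86 FPKM against 10.7, 11.4 and 10.7 (0.60 ± 0.04, adjusted *p* = 1.74e-05). *Pcna* was again the most abundant of the S-phase genes, at 149 ± 6.66 FPKM (SD, n = 3) against 230 ± 12.5. *Tyms*, which makes thymidylate, rose by 0.64, *E2f8*, a repressing E2F factor, by 0.51, *Ccne2* by 0.49, *Ccne1* by 0.38 and *Rrm2* by 0.31. *E2f1* rose by only 0.15 ± 0.05 (adjusted *p* = 0.0319), and *Rrm1* did not pass, with 62.3 ± 1.69 FPKM against 66.9 ± 2.79 (0.10 ± 0.04, adjusted *p* = 0.0554).

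**Figure D4:**
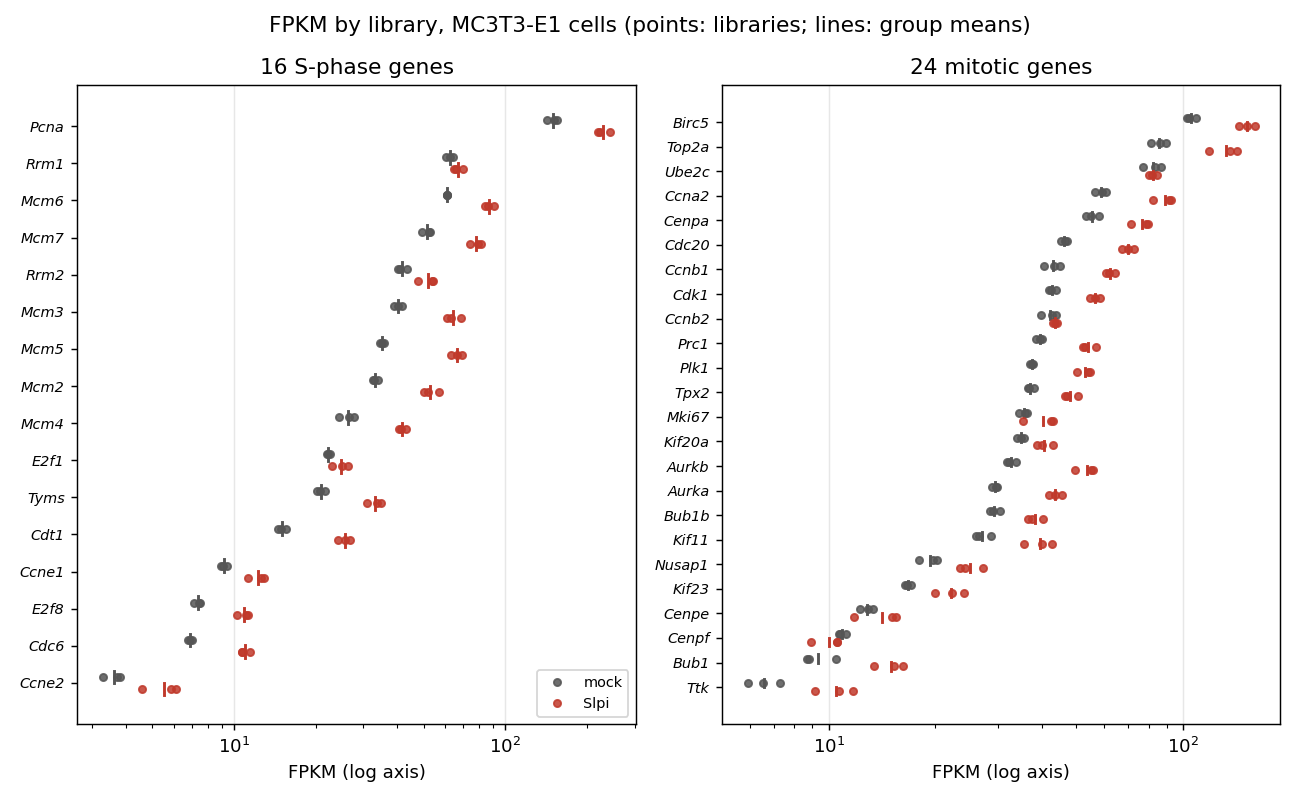
FPKM of the 16 S-phase genes (left) and 24 mitotic genes (right) in MC3T3-E1 cells on a log axis, with genes ordered by their mock mean. Points are the 3 mock (grey) and 3 Slpi (red) libraries and short vertical lines the group means. Slpi points lie right of all mock points in 16 S-phase and 19 mitotic genes.

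Among the mitotic genes, *Cdc20* had the smallest adjusted *p*, with 45.2, 46.4 and 47.1 FPKM in mock and 70.1, 72.7 and 67.3 in Slpi (0.59 ± 0.04, adjusted *p* = 8.5e-06). The Aurora kinases followed, with *Aurka* at 29.8, 28.8 and 29.7 FPKM against 43.7, 45.5 and 41.8 (0.55 ± 0.04). *Aurkb*, the kinase of the chromosomal passenger complex, read 32.3, 31.8 and 33.8 FPKM against 55.1, 55.7 and 49.6, and its 0.69 ± 0.05 was the largest change of the 24. *Birc5*, which encodes survivin of the same complex, read 104, 102 and 109 FPKM against 151, 160 and 144 (0.52 ± 0.04). None of these groups overlapped. *Plk1*, a kinase of mitotic entry, read 37.1, 37.4 and 37.7 FPKM against 53.9, 54.6 and 50.1 (0.49 ± 0.04). The mitotic cyclins *Ccna2* (56.5, 59.1 and 60.6 FPKM against 82.4, 92.6 and 91.3) and *Ccnb1* (40.5, 43.3 and 45.1 against 60.8, 64.4 and 61.7) rose by 0.59 ± 0.05 and 0.53 ± 0.05. Their kinase *Cdk1* read 42.0, 42.3 and 43.9 FPKM against 54.8, 58.4 and 56.6 (0.40 ± 0.04, adjusted *p* = 4.57e-05). *Top2a* read 81.4, 86.1 and 89.6 FPKM against 118, 142 and 136 (0.62 ± 0.07). *Prc1* (38.4, 39.6 and 40.1 FPKM against 52.1, 56.8 and 52.8), *Tpx2* (36.5, 36.7 and 38.0 against 46.9, 50.4 and 46.5) and *Cenpa*, the centromeric histone (53.3, 54.9 and 58.1 against 78.4, 79.6 and 71.3), were called as well, by 0.44, 0.36 and 0.46. The 7 further genes called were *Bub1*, *Bub1b*, *Kif11*, *Kif20a*, *Kif23*, *Nusap1* and *Ttk*, kinetochore kinases, kinesin motors and a spindle protein, with changes from 0.21 for *Kif20a* to 0.63 for *Bub1*.

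5 mitotic genes were not called. *Mki67* read 34.5, 35.9 and 36.4 FPKM in mock and 35.3, 42.9 and 42.5 in Slpi (0.17 ± 0.07, adjusted *p* = 0.0682). *Ube2c* was 82.5 ± 4.81 FPKM (SD, n = 3) against 82.2 ± 2.10, with a 95% interval of the fold change from -0.11 to 0.10. *Ccnb2* was 42.1 ± 2.04 FPKM against 43.6 ± 0.53 (-0.04 to 0.14), which leaves out the median change of the list. *Cenpe* was 12.8 ± 0.56 FPKM against 14.1 ± 2.03 (adjusted *p* = 0.280), and *Cenpf* had a fold change of -0.11 ± 0.06 (adjusted *p* = 0.157), the only mitotic gene lower without overlap. The mitotic genes thus ranged from -0.11 to 0.69, and the S-phase genes from 0.10 to 0.90.

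Most genes of the wider lists, other than the inhibitors, were called higher as well, beside 31.9% higher and 28.9% lower among all genes. Of 63 other mitotic genes tested 58 were higher and 0 lower, led by *Cks1b*, a CDK subunit (0.48 ± 0.03, adjusted *p* = 7.03e-06), *Kif22*, a chromosome arm motor (0.48), and *Mybl2*, which encodes the activator B-Myb (0.80). Of 51 other replication genes 49 were higher and 1 lower. *Gins1*, a subunit of the replicative helicase complex, was at 10.2 ± 0.09 FPKM (SD, n = 3) in mock and 19.8 ± 0.56 in Slpi (0.89). *Ung*, a uracil-DNA glycosylase, rose from 4.60 ± 0.12 to 10.1 ± 0.11 FPKM (0.99), and *Rpa2*, which coats single-stranded DNA, by 0.72. The gene called lower was *Gins4*, named after its values were seen, whose product binds that of *Gins1*, with 50.4, 48.4 and 50.1 FPKM against 39.9, 38.1 and 38.0 (-0.35 ± 0.04, adjusted *p* = 6.76e-05). In G1, 12 of 14 genes were higher, *E2f7* by 0.96, *Cdk4* by 0.57 and *Tfdp1* by 0.48. Of 17 inhibitors 6 were higher (35.3%) and 4 lower (23.5%), shares near those of all genes. *Rbl1*, *E2f4* and *Wee1*, whose products restrain cell cycle genes or entry to mitosis, were higher by 0.57, 0.41 and 0.42. They are named for the smallest *p* in limma, and fold changes of the 17 ran from -0.38 to 0.57 with a median of 0.06.

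Set side by side, the experiments called the S-phase genes in opposite directions. They share no samples. All 12 S-phase genes called lower with PTH were called higher with Slpi, which is 100% of the 12 and 80% of the 15. Since 15 of the 16 S-phase genes (93.8%) were called higher with Slpi, an overlap near this size was fixed in advance. It does not show that the same genes respond in both experiments. Of the mitotic genes, *Bub1b* was called in both, 33.3% of the 3 lower with PTH and 5.26% of the 19 higher with Slpi. With 31.9% of all genes called higher in MC3T3-E1 cells, and with different cells and agents, the difference between the experiments was not tested. *Ccnd1* was higher in both, with 77.7 ± 0.80 FPKM (SD, n = 3) in mock and 106 ± 1.67 in Slpi. The median FPKM of the mitotic genes was 35.8 to 37.0 in mock and 5.78 to 7.48 in vehicle-treated osteoblasts. For the S-phase genes it was 28.5 to 30.3 and 15.9 to 23.1. These levels were set by separate normalizations and are given without a test.

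**Figure D5:**
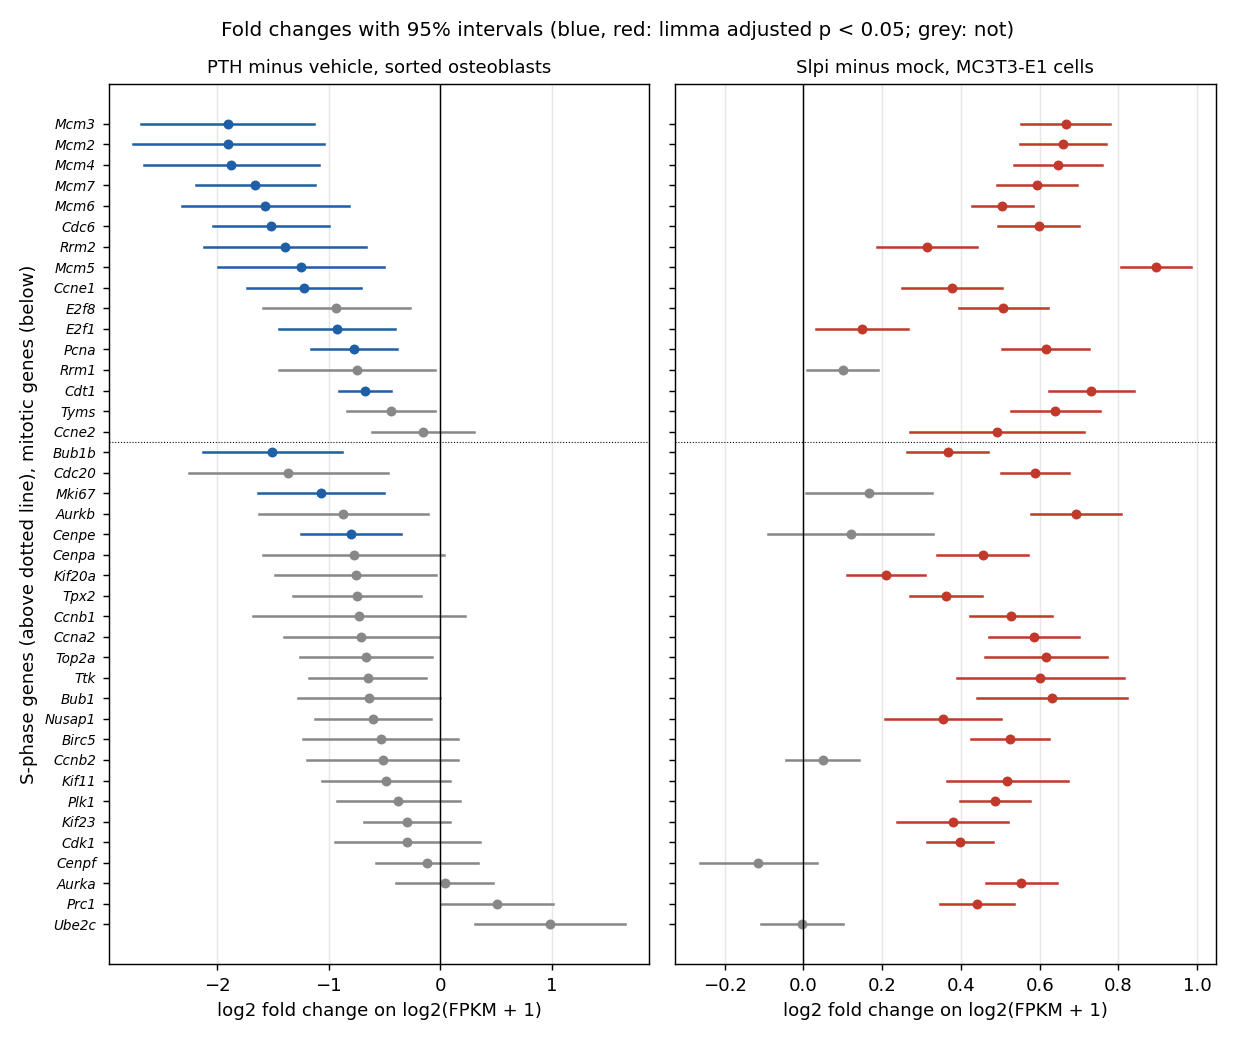
Log2 fold changes on log2(FPKM + 1) with 95% intervals for the 40 genes, PTH minus vehicle in sorted osteoblasts (left) and Slpi minus mock in MC3T3-E1 cells (right), on different horizontal scales. Blue and red mark genes called lower and higher at a limma adjusted *p* under 0.05 and grey those not called. With PTH 12 S-phase and 3 mitotic genes are blue, and with Slpi 15 and 19 are red.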

How the data were processed

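RNA-Seq values of 6 libraries of sorted osteoblasts and 6 of MC3T3-E1 cells were analysed, grouped by their labels. The authors deposited FPKM per gene. Per the methods, reads of 75 bases (HiSeq, single-end) were mapped to mm10 by TopHat 2.0.13, Bowtie2 2.2.3 and SAMtools 0.1.19 and FPKM were computed with Cuffnorm (Cufflinks 2.2.1). The annotation and scaling option are not given in the sources used here. The labels name a TruSeq stranded kit for MC3T3-E1 cells and the methods SMART-Seq v4.

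Each experiment was fitted alone, without a replicate block, on log2(FPKM + 1) with limma 3.58.1 (R 4.3.3, eBayes with trend), over genes reaching an FPKM of 1 in any of the 6 libraries. The Benjamini-Hochberg adjustment ran over all genes tested, and a gene was called at an adjusted *p* under 0.05. An exact permutation test of 3 against 3 cannot go below 0.10. On simulated data with 200 genes changed by 1 on the log2 scale, all 200 were recovered in both designs, with 10 and 7 false calls among 12596 and 11320 genes. The simulated noise was independent between genes, had the same spread at a given mean level and held no shift of whole libraries. Genes with low values were not among those changed. The simulation therefore checks the code and does not measure power or false calls in these libraries. Reads were estimated from the FPKM step of 1 read and the longest protein-coding transcript of each gene. Estimates are lower if a shorter transcript was the main one, as is possible for *Cenpa* (1466 and 346 bases), *Ube2c* (2191 and 967) and *Cdc6* (4614 and 2559). Between 73.5% and 80.2% of low values lay within 0.1 of whole reads, and the estimates cover counting error only. Of the 40 genes, 4 have a named pseudogene (*Ccnb1*, *Ccnb2*, *Pcna* and *Tyms*) and 11 have exons overlapping another gene in GENCODE M21, so their reads are uncertain.

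The 40 genes, the other lists and the tests were chosen with earlier results of these data known. Values per library are given for called genes, at most 8 S-phase and 12 mitotic genes by smallest adjusted *p*, filled to 6 mitotic genes where fewer were called, and for the 3 called genes of each other list with the smallest *p*. Other genes of the 40 are given by mean or range, except *Prc1* in osteoblasts, given by library after its values were seen. The alternatives were a replicate block, a pseudocount of 0.1, no filter, a mean FPKM of at least 1, no trend, quantile normalization, median-ratio scaling, scaling to TPM, the 2-fold rule and leaving out each library. The 2-fold rule together with leaving out each library was added after seeing the data.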

Additional observations from a re-analysis of the deposited data

How the results depend on the processing

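All 16 S-phase genes kept their direction under all 15 settings in both experiments. Of the mitotic genes, 21 of 24 did so with PTH (not *Aurka*, *Cdk1* and *Cenpf*) and 22 of 24 with Slpi (not *Ccnb2* and *Ube2c*). In MC3T3-E1 cells the 2-fold rule gave 0 S-phase and 0 mitotic genes higher. All other Slpi counts stayed within 1.5 times the reported ones, with leave-one-out ranges of 14 to 15 S-phase and 19 to 21 mitotic genes.

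Replicate numbers were not shown to pair the libraries. Same-numbered libraries deviated together with r = 0.029, 0.073 and 0.102 in osteoblasts and 0.039, -0.052 and -0.0003 in MC3T3-E1 cells, and not every library correlated best with its own number. With PTH, the replicate block called 14 S-phase and 9 mitotic genes lower, *Cdc20* and *Tpx2* among them (limma adjusted *p* = 0.00995 and 0.0312), and 5 inhibitors. Without a filter, 9 S-phase and 1 mitotic genes were lower, and 4 other mitotic genes and 1 inhibitor were called. Quantile normalization called 1 mitotic gene higher, *Ube2c* (limma adjusted *p* = 0.0494, range 0.0463 to 0.155 over all alternatives). Leaving out 1 library each gave 0 to 12 S-phase and 0 to 2 mitotic genes lower, 0 to 2 mitotic genes higher, 0 to 13 other mitotic genes, 0 to 37 other replication genes, 0 to 3 G1 genes and 0 to 2 inhibitors. By the 2-fold rule these ranges were 8 to 11 S-phase and 1 to 6 mitotic genes lower and 0 to 1 mitotic genes higher. Over all genes tested, the same fits called 0 to 895 lower and 0 to 674 higher after adjustment. By the 2-fold rule 424 to 819 of all genes were lower and 133 to 233 higher. The fold change of *Slpi* ranged from 2.93 to 3.37, with adjusted *p* up to 0.0736. The cause was not tested. Of the 11 called genes of the 40 with values per library, 28 of 66 fits that left out 1 library lost the call and 0 changed sign. By the reads estimated on the longest transcripts, depth limits *Ttk*, *Aurka* and *Cdc6* most in osteoblasts.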
